A study of Mus musculus with 24 samples.

Results

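The Kruppel-like factors described here are 8 genes of one family of transcription factors, Klf2, Klf4, Klf6, Klf7, Klf9, Klf10, Klf13 and Klf15. They were chosen by symbol, with earlier results of these data known. All 8 had a row in each of the 4 deposited tables, out of 14014 genes listed in all 4 tables and 14769 listed in any. Of 18 mouse Klf symbols searched, 14 were in the tables. Cortex RNA was taken from males that were 3 to 4 months old, of the strain given as C57BL/6N-Cdr1asem1Nikr for every animal. In each animal the middle cerebral artery was closed with a monofilament for 1 h and then reopened for 1 day (transient middle cerebral artery occlusion, tMCAo), and no group without this surgery was analysed here. The animals were wild type (WT) or ciRS-7 knockout (KO), ciRS-7 being the circular RNA Cdr1as that binds the microRNA miR-7. Each animal gave a cortex sample marked CL and one marked PI, marks that the labels do not spell out, so that there were 4 groups of 6 libraries, CL WT and PI WT from wild-type and CL KO and PI KO from knockout animals. The series asked how expression differs between wild-type and knockout animals after stroke.

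Kruppel-like factors bind GC-rich and CACCC-type sequences through zinc fingers at their carboxy terminus, and the members differ in whether they recruit activators or repressors. Klf2 and Klf4 are known as the flow-responsive factors of endothelium, where a kinase cascade ending in ERK5 and MEF2 induces them and where they raise anticoagulant and vasodilator genes. Klf6 and Klf10 are induced by injury and by TGF-beta, Klf7 is known for axon growth, Klf9 and Klf15 are induced by glucocorticoids, and Klf9 and Klf13 are closely related factors that mature neurons express.

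Since the knockout removes an RNA that binds miR-7, the miR-7 sequences and their matches in the members are shown first. The mature sequences from RefSeq (GRCm38.p6) have a shared seed, bases 2 to 8, in capitals:
mmu-miR-7a-5p: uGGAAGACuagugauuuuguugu
mmu-miR-7b-5p: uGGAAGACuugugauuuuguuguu
The complement of that seed, GTCTTCC, was searched in the 3′ UTR of each member in GENCODE M21 on GRCm38. It occurred at 2 places in Klf4 and 1 in Klf13, and in the annotated 3′ UTR of the other 6 members these letters were not found. Each stretch is written on the strand of the gene with the match in capitals:
Klf4, chr4:55528042-55528066: ctaacctttcacactGTCTTCCcac
Klf4, chr4:55527466-55527490: ggaaaatctagttttGTCTTCCgat
Klf13, chr7:63888732-63888756: gccttcgaagatgcaGTCTTCCcag
No match was followed by A, the base that marks the stronger class of seed site. Among 21004 protein-coding genes with a 3′ UTR, 11.7% held such a match. For 3′ UTRs near the 982 bases of Klf4 the share was 9.13%, and for those near the 5157 bases of Klf13 it was 31.6%, so a match in Klf13 is common for its length.

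Promoters are shown for Klf13, Klf9 and Klf15, the members lower in PI WT than in CL WT, and for Klf2, the member with the largest difference between genotypes. Each run covers 250 bases before to 50 after the start site in RefSeq (GRCm38.p6), a table in which 7 of the 8 members were matched. Capitals mark CACCC, the GC box GGGCGG and the MEF2 consensus on either strand:
Klf13, chr7:63938866-63939165, minus strand: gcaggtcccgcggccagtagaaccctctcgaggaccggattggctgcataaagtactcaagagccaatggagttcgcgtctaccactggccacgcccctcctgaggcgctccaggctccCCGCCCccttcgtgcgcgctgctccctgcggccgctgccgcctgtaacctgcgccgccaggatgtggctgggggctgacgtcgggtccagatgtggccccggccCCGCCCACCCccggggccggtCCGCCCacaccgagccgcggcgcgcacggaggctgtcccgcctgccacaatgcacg
Klf9, chr19:23140976-23141275, plus strand: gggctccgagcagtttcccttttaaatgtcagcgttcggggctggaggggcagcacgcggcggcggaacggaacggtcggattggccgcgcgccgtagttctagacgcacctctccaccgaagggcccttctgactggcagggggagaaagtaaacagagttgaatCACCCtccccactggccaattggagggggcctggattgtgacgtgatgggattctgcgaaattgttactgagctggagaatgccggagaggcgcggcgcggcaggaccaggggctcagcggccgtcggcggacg
Klf15, chr6:90462326-90462625, plus strand: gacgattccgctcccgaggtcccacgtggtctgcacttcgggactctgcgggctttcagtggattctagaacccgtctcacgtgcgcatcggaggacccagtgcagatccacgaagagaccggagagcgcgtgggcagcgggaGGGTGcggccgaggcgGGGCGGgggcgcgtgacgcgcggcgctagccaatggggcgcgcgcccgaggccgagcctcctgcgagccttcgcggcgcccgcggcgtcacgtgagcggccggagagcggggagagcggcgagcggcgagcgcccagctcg
Klf2, chr8:72318812-72319111, plus strand: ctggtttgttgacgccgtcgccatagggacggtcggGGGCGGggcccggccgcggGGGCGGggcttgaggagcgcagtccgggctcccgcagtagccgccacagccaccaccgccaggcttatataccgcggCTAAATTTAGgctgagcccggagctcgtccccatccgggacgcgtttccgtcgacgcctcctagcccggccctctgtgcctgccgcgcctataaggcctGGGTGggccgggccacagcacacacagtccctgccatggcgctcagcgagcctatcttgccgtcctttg
The GC box occurred 3 times in Klf13, where one copy overlaps the single CACCC, 2 times in Klf2, once in Klf15 and not in Klf9, against 35.7% of 32851 promoter windows of that length with at least 1 copy. CACCC occurred once in each of these 4 windows and in 57.5% of all windows. Klf2 alone of the 7 held the MEF2 consensus, as CTAAATTTAG with its first base at position -118 from the start site, and 3.19% of all windows held it. Klf4, whose window was 74.3% G and C against a median of 52.7% over all windows, had 4 GC boxes and no CACCC. The glucocorticoid half-site TGTTCT was in none of the 7 windows and in 19.0% of all windows. These shares over all windows are not matched for G and C content, which ran from 58.3% in Klf7 to 74.3% in Klf4 among the 7. They therefore show neither a surplus nor a lack of a motif, and sites outside the windows were not searched.

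The tables hold log2 CPM, the log2 of a gene's reads per megaread (M) of its library. The worth of 1 read was found from the steps between low values and gave a depth of 3.75 to 10.51 M reads per library, with a median of 6.86. CL KO animal 6 was the shallowest, at 3.75 and 3.83 M reads in the 2 tables that hold it, while the other 23 ran from 5.27 to 10.51. A limit of 3 reads was 0.285 to 0.799 CPM, for counting error only. In every gene the authors' values of the 2 lowest and the 2 highest libraries of a group were equal, because they had been drawn in to the group's quartiles. Solving for the 4 inner values and matching them between tables gave 4 known values per gene and group, nearly always with the animal each belongs to, and a bound for the lowest and the highest library. A group level below is the mean of those 4 inner values with its standard error (SE), and a gene was called where the adjusted p of the trimmed-mean test in limma was under 0.05. Summed levels of marker lists are instead ranges over the 6 libraries of the deposited values. Because each gene is drawn in there, these ranges understate the spread between libraries. The cortical neuron markers Tbr1, Cux2, Neurod6 and Slc17a7 were all listed, at 6.05 to 8.74 log2 CPM in CL WT, and all 8 neutrophil and monocyte markers were missing from both tables of PI and CL. For PI KO against PI WT, 2 of those 8 were listed, both higher in KO, by 0.77 and 1.16. Of these, 1 had an unadjusted p under 0.05 and 0 were called.

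Per length of exon, Klf9 was by far the most abundant member in CL WT, at 64.74 CPM per kb, and Klf4 the least, at 0.837. Between them in the same unit and group stood Klf6 at 14.05, Klf13 at 13.01, Klf7 at 7.69, Klf15 at 6.29, Klf10 at 5.24 and Klf2 at 1.45. The intervals of 1 SE of Klf6 and Klf13 (13.63 to 14.48 and 12.75 to 13.28) lay close together without overlap, and in PI WT the gap had widened to 17.07 against 9.93. Over the libraries of all 4 groups, reads per library ran from 938 to 2630 for Klf9, but from 13 to 46 for Klf2 and from 11 to 39 for Klf4. At the lowest of these counts, counting error alone was 27.7% of the value for Klf2 and 30.2% for Klf4. Libraries known only by a bound were counted at that bound, so the true extremes can lie outside these ranges.

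**Figure D1:**
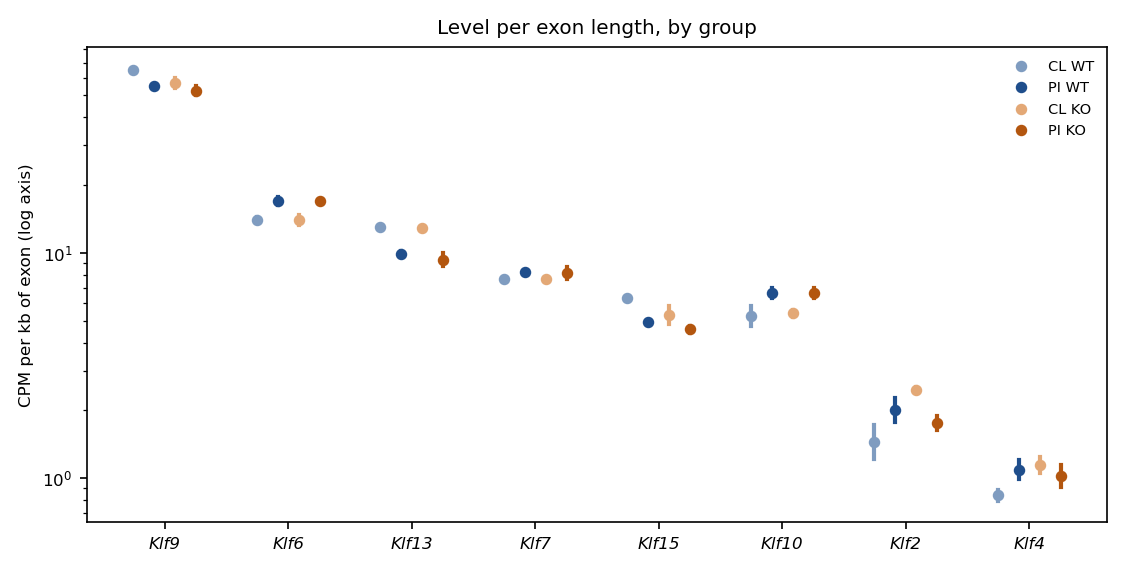
Level of each member in CPM per kb of exon (log axis) in the 2 WT and the 2 KO groups; points are means of the 4 inner values and bars 1 SE. Klf9 stands at 52.47 to 64.74 in every group, and Klf2 and Klf4 lie below 3.

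The comparison of PI with CL asked how the members differ between the 2 samples of the same brains. In WT, Klf6 was higher in PI and Klf13, Klf9 and Klf15 were lower. In KO, Klf6 was again higher and Klf13 again lower. The called members numbered 4 of 8 in WT, 1 higher and 3 lower, where 10.6% of 14489 genes were called (5.20% higher and 5.40% lower). In KO they numbered 2 of 8, 1 in each direction, where 10.0% of 14338 genes were called (5.11% higher and 4.94% lower). The 8 were chosen with earlier results of these data known, so these counts are not separate from that choice. Of the 6 other listed Kruppel-like factors, 0 were called in either genotype. The difference was positive in 5 of 8 members in WT and 3 of 8 in KO, where 52.3% and 49.9% of all genes were positive. Its median over the 8 was 0.19 in WT and -0.14 in KO, against 0.01 and -0.00 over all genes. With each group centred on its median gene, the calls over all genes became 636 higher and 1053 lower in WT in place of 754 and 783, and 589 and 1017 in KO in place of 732 and 708. Limma on the deposited values, whose spread is understated by the drawing-in, called 8 members in WT and 5 in KO, and with the animal as a block it called 8 and 6.

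**Figure D2:**
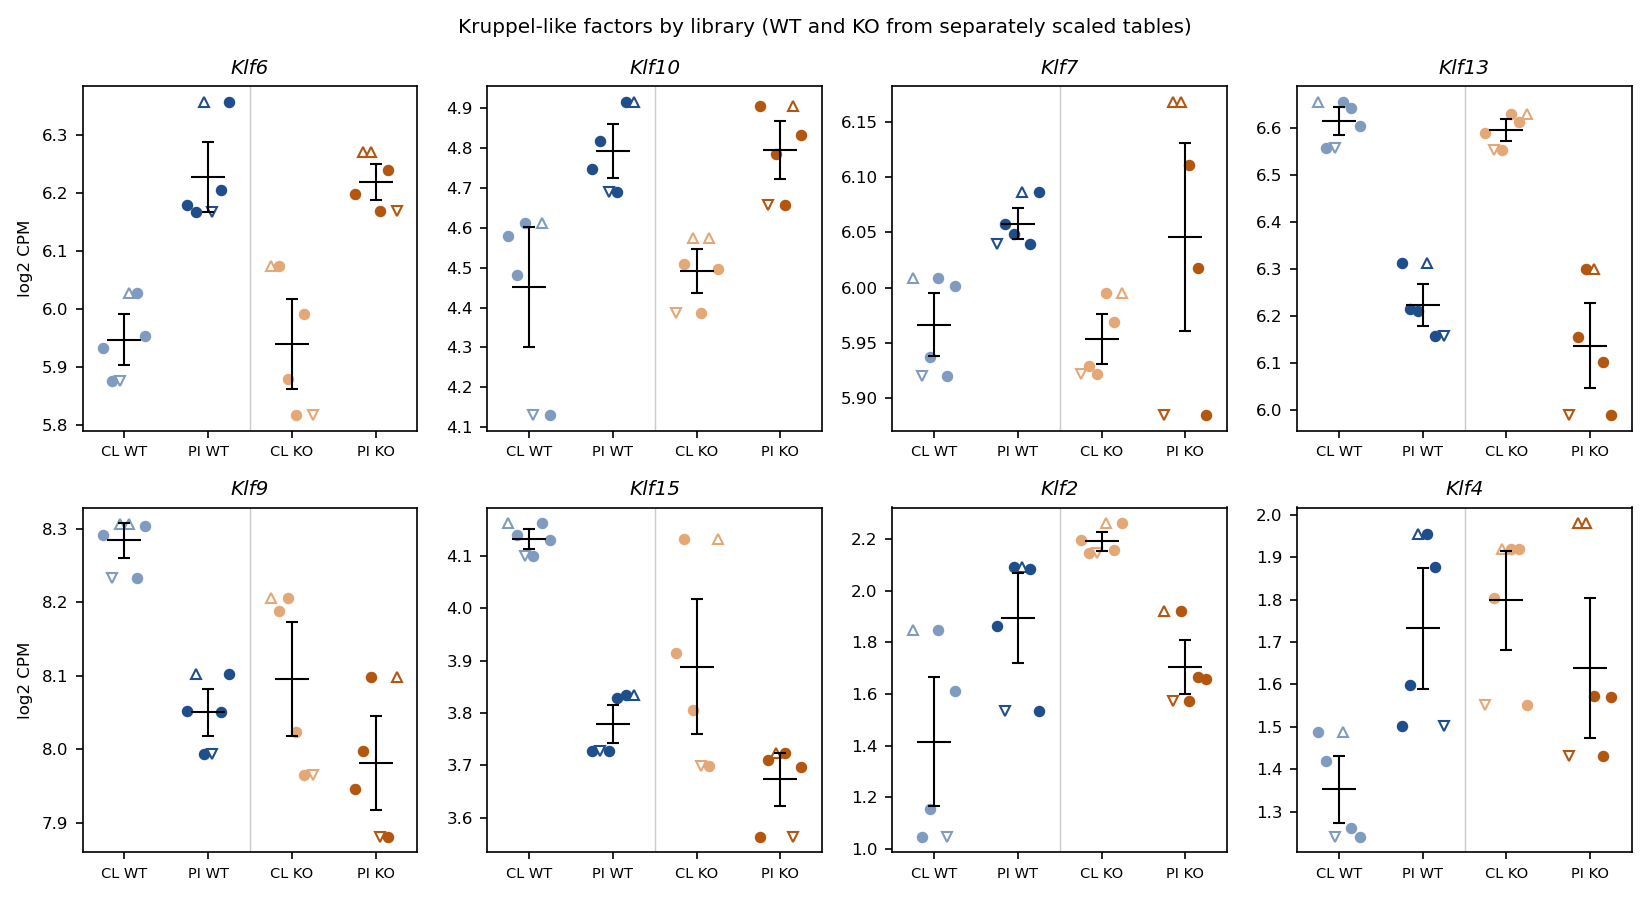
log2 CPM of each member in each library, with WT values from the table of PI WT and CL WT and KO values from that of PI KO and CL KO; filled points are known values, triangles pointing down are upper bounds and pointing up lower bounds, and the line with bars is the mean of the inner values with 1 SE. In Klf13 every known PI value lies below every known CL value in both genotypes, whereas in Klf2 the CL values are spread from 1.05 to 1.85 in WT and gathered from 2.15 to 2.26 in KO.

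Klf6 (chromosome 13, 5861482 to 5870394, plus strand), an injury-induced factor, stood in CL WT at 5.93, 5.88, 6.03 and 5.95 log2 CPM in animals 1, 2, 5 and 6, at or below 5.88 in animal 3 and at or above 6.03 in animal 4. In PI WT the values were 6.18, 6.17, 6.21 and 6.36 in the same animals 1, 2, 5 and 6, at or above 6.36 in animal 3 and at or below 6.17 in animal 4. Each animal with 2 known values was therefore higher in PI, and the known values of the groups did not overlap. The difference was 0.28 (SE 0.07, adjusted p = 0.0257), a 1.21-fold rise. In KO the level rose from 5.94 ± 0.08 in CL to 6.22 ± 0.03 in PI (SE, n = 6), a difference of 0.28 (SE 0.08, adjusted p = 0.0436), with 4 of 6 animals higher and the other 2 undetermined. Klf6 lost its call in both genotypes under a prior variance without a trend in expression (adjusted p = 0.0788 in WT and 0.110 in KO), and in KO also when groups were centred on their median genes (adjusted p = 0.0680). Of 8 microglia markers 4 were called higher in PI and 1 lower in each genotype, with Itgam at 1.08 in WT and 0.95 in KO, C1qa at 0.69 and 0.79, and P2ry12 at -0.82 and -0.75. Their summed level over the drawn-in values in WT was 167.5 to 179.6 CPM in CL and 184.9 to 209.3 CPM in PI, in KO 178.2 to 192.6 and 201.2 to 244.2. Since the drawing-in narrows these ranges, a gap between them can be overstated. The part of these markers in the rise of Klf6 was not tested. In bulk cortex a change in the number of cells of a type and a change in RNA per cell cannot be told apart.

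Klf10 (chromosome 15, 38291463 to 38300706, minus strand), an early response gene of TGF-beta, had known values from 4.13 to 4.61 log2 CPM in CL WT and from 4.69 to 4.92 in PI WT. The KO values were 4.39 to 4.57 in CL and 4.66 to 4.91 in PI, so that in both genotypes the known PI values lay above the known CL values. The difference was 0.34 in WT (SE 0.13, adjusted p = 0.126) and 0.30 in KO (SE 0.10, adjusted p = 0.0634), and neither passed. Klf7 (chromosome 1, 64029447 to 64122282, minus strand), the axon growth factor, differed by 0.09 in each genotype (SE 0.06, adjusted p = 0.367 in WT and SE 0.08, adjusted p = 0.547 in KO). Its 95% interval was -0.03 to 0.21 in WT and -0.09 to 0.27 in KO. The interval of Klf6 in WT, 0.12 to 0.44, overlaps that of Klf7. Klf7 was higher in PI in 5 of 6 WT animals with 1 undetermined. In KO it was higher in 4, lower in 1 and undetermined in 1. Exons of Klf7 overlap the antisense gene Gm13748 and the lincRNA Gm26649 on the other strand, and how reads there were assigned is not given in the sources used here.

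Klf13 (chromosome 7, 63886351 to 63938915, minus strand), one of the pair of closely related neuronal factors, had the smallest p of the family between PI and CL in both genotypes. In CL WT it stood at 6.56, 6.66, 6.64 and 6.60 log2 CPM in animals 2, 4, 5 and 6, at or above 6.66 in animal 1 and at or below 6.56 in animal 3. In PI WT it stood at 6.31, 6.21, 6.21 and 6.16 in animals 1, 2, 3 and 5, at or above 6.31 in animal 4 and at or below 6.16 in animal 6. Every known CL value was thus above every known PI value, and the gene fell by 0.39 (SE 0.06, 95% interval -0.52 to -0.26, adjusted p = 0.00162), or 1.31-fold. In KO, known values of 6.55 to 6.63 in CL fell to 5.99 to 6.30 in PI, with the PI libraries more spread than the CL ones. That fall was 0.46 (SE 0.08, 95% interval -0.64 to -0.28, adjusted p = 0.00446), or 1.37-fold, and it was a fall in 4 of 6 animals of each genotype with the other 2 undetermined. The call of Klf13 held in both genotypes under each alternative with a test.

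Klf9 (chromosome 19, 23141226 to 23168134, plus strand), the glucocorticoid-induced relative of Klf13, had known values of 8.23 to 8.31 log2 CPM in CL WT and 7.99 to 8.10 in PI WT. These groups stood apart, and the fall was 0.23 (SE 0.05, adjusted p = 0.0106), or 1.18-fold, with 5 of 6 animals lower and 1 undetermined. In KO the known values ran from 7.96 to 8.21 in CL and from 7.88 to 8.10 in PI and overlapped. The difference there was -0.11 (SE 0.08, adjusted p = 0.431), with 5 animals lower and 1 higher. Without a trend in the prior variance the WT value did not pass (adjusted p = 0.0555).

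Klf15 (chromosome 6, 90462576 to 90475238, plus strand), a regulator of amino acid breakdown that glucocorticoids induce, stood at known values of 4.10 to 4.16 log2 CPM in CL WT and 3.73 to 3.83 in PI WT. It fell by 0.35 (SE 0.08, adjusted p = 0.0165), or 1.28-fold, and the known values did not overlap. In KO the CL libraries were spread from 3.70 to 4.13 and overlapped the PI libraries at 3.56 to 3.72. The difference in KO was -0.21 (SE 0.13, adjusted p = 0.341), with 4 animals lower and 1 higher. Markers of other cell types differed between PI and CL in both directions. The summed level of the 8 neuron markers was 6279 to 6792 CPM in CL WT and 5316 to 5946 in PI WT, and 6286 to 6540 and 5135 to 5740 in the same samples of KO. Of the 8, 3 fell in each genotype (Nefl, Snap25 and Syt1) and 1, Gad2, rose in KO. Of 7 astrocyte markers, Aqp4 rose in both genotypes (by 0.27 in WT and 0.41 in KO), Gja1 fell in both (by 0.35 and 0.43) and Slc1a2 fell in WT (by 0.23), so the list as a whole did not move one way. Its summed level, 7509 to 7912 CPM in CL WT and 6533 to 6936 in PI WT, consists mostly of Slc1a2, at 12.71 log2 CPM in CL WT against 4.79 to 8.83 for the other 6. Of 7 oligodendrocyte markers 2, Cnp and Mal, fell in WT and 0 were called in KO, and the list summed to 2169 to 2372 CPM in CL and 1487 to 2117 in PI of WT, with 1733 to 2347 and 1650 to 1880 for KO. No listed marker was at the lowest value of its table throughout a group, and the part of these markers in the falls of Klf13, Klf9 and Klf15 was not tested.

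**Figure D3:**
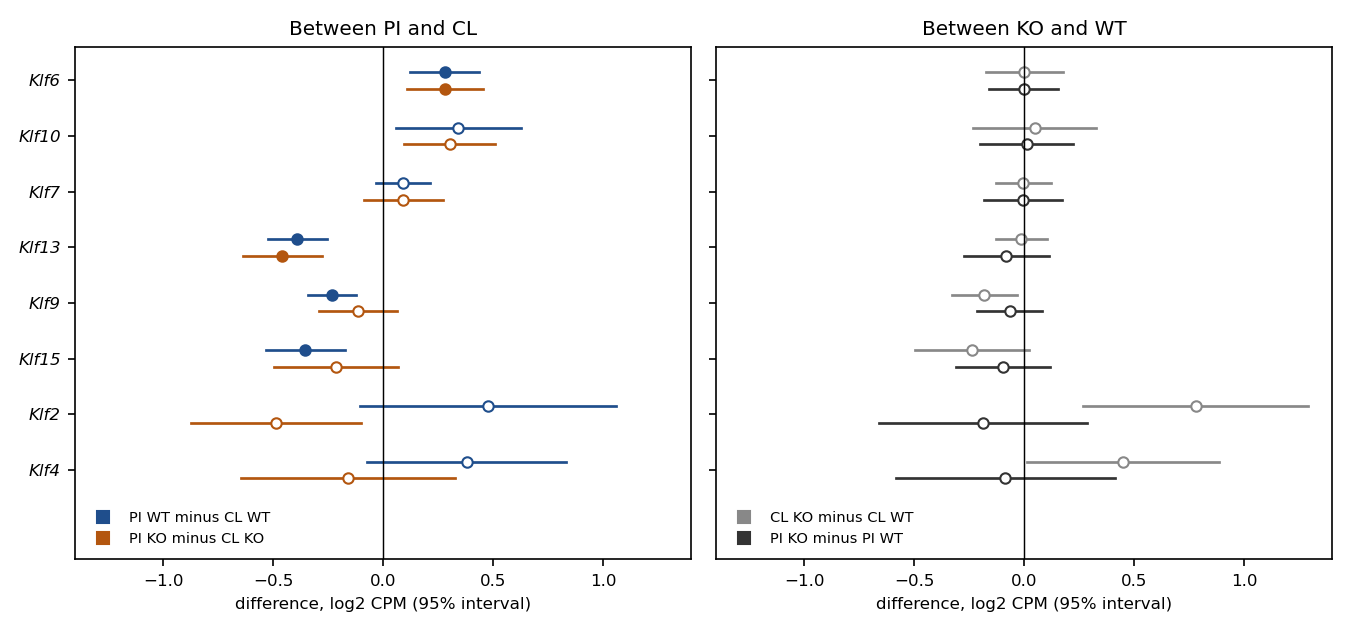
Difference in log2 CPM of each member between PI and CL (left) and between KO and WT (right), with 95% intervals; filled points passed an adjusted p of 0.05 and open points did not. Klf13 and Klf6 have filled points in both genotypes, and the points of Klf2 lie on opposite sides of 0 in WT (0.48) and KO (-0.49).

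Klf2 (chromosome 8, 72319033 to 72321656, plus strand) and Klf4 (chromosome 4, 55527143 to 55532466, minus strand), the endothelial pair, were not called between PI and CL in either genotype. In WT, Klf2 stood at 1.05, 1.15, 1.85 and 1.61 log2 CPM in CL of animals 2, 3, 4 and 6, with animal 1 at or above 1.85 and animal 5 at or below 1.05. In PI it stood at 1.86, 2.09, 2.08 and 1.54 in animals 1, 3, 5 and 6, with animal 4 at or above 2.09 and animal 2 at or below 1.54. The groups overlapped, and the difference was 0.48 (SE 0.27, 95% interval -0.11 to 1.06, adjusted p = 0.315). In KO, CL libraries stood at 2.19, 2.15, 2.16 and 2.26 in animals 1, 2, 5 and 6, with animal 4 at or above 2.26 and animal 3 at or below 2.15. PI libraries of KO stood at 1.92, 1.57, 1.66 and 1.66 in animals 3 to 6, with animal 1 at or above 1.92 and animal 2 at or below 1.57. All known PI values were here below all known CL values, and the difference was -0.49 (SE 0.18, 95% interval -0.87 to -0.10), which did not pass after adjustment (adjusted p = 0.108). Without a trend in the prior variance it did pass (adjusted p = 0.0411).

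Klf4 had known values of 1.24 to 1.49 log2 CPM in CL WT and 1.50 to 1.95 in PI WT, a difference of 0.38 (SE 0.21, adjusted p = 0.301). Its KO values of 1.55 to 1.92 in CL and 1.43 to 1.98 in PI overlapped, with a difference of -0.16 (SE 0.22, adjusted p = 0.722). Counted over members, known values did not overlap in 7 of 8 in WT, Klf2 being the exception, and in 4 of 8 in KO (Klf2, Klf6, Klf10 and Klf13). The share over all genes was 13.2% higher and 13.1% lower in WT, and 13.4% in each direction in KO.

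Of the 11 endothelium markers 10 were positive between PI and CL in WT (median 0.30, 4 with an unadjusted p under 0.05, 0 called) and 9 in KO (median 0.19, 4 with an unadjusted p under 0.05). The called marker in KO was Slco1a4, a transporter gene, which fell by 0.48. In sum the list stood at 101 to 146 CPM in CL WT and 104 to 152 in PI WT, and at 115 to 134 and 116 to 130 in KO. The part of endothelial RNA in the PI and CL values of Klf2 and Klf4, and in those of their endothelial target genes, was not tested.

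**Figure D4:**
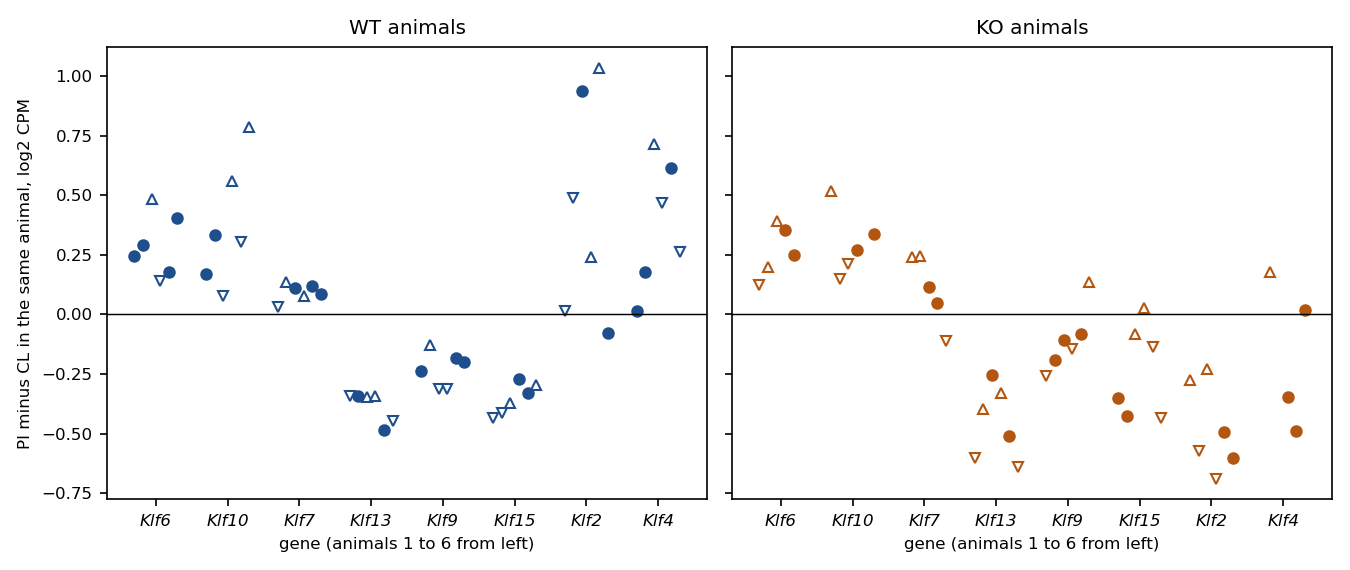
Difference between the PI and the CL library of the same animal in log2 CPM, for each member, in WT (left) and KO (right); filled points are known differences, triangles pointing up lower bounds and pointing down upper bounds, and animals with neither are left out. For Klf2 the known differences are 0.94 and -0.08 in WT and -0.49 and -0.60 in KO.

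Between genotypes no member was called. In PI, 0 of 8 members passed, where 0.0208% of 14452 genes were called, and 0 members had an unadjusted p under 0.05, against 5.75% of all genes. The known values of PI KO and PI WT overlapped in all 8, where 4.39% of all genes were higher and 4.57% lower without overlap, and the differences ran from -0.19 in Klf2 to 0.01 in Klf10. For Klf6, Klf7, Klf9 and Klf10 the 95% intervals lay within -0.21 and 0.22, and larger differences lie outside them. In CL, 3 of 8 members were positive, where 49.2% of all genes were, and 0 of 8 passed, where 0.0279% of 14323 genes were called, while 3 members had an unadjusted p under 0.05, against 5.73% of all genes. Limma on the deposited values called 4 members in CL, Klf2 and Klf4 higher and Klf9 and Klf15 lower in KO, and 0 in PI.

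The 3 were Klf2, Klf4 and Klf9. In the table that compares the genotypes in CL, which is scaled apart from those above, the KO level of Klf2 was 2.16 ± 0.03 log2 CPM and the WT level 1.38 ± 0.25 (SE, n = 6). Its known values ran from 2.12 to 2.23 in CL KO and from 1.02 to 1.81 in CL WT, without overlap, and the WT libraries were the more spread. The difference was 0.78 (SE 0.24, 95% interval 0.27 to 1.29, unadjusted p = 0.00591, adjusted p = 0.646), or 1.72-fold. Klf2 had 18 to 46 reads per library in CL KO and 13 to 25 in CL WT, libraries at a bound being counted there. At such counts the counting error per library is large, 27.7% of the value at 13 reads. Neither the small spread in CL KO nor the wider one in CL WT is therefore read as a trait of its group. CL KO animal 6, the shallowest library, had 18 reads of Klf2, and without it limma on the deposited values gave a difference of 0.77.

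Klf4 differed in CL by 0.45 (SE 0.20, 95% interval 0.01 to 0.89, unadjusted p = 0.0445, adjusted p = 0.856), with known values of 1.52 to 1.89 in CL KO and 1.21 to 1.45 in CL WT. Klf9 differed by -0.18 (SE 0.07, unadjusted p = 0.0201, adjusted p = 0.824), with known values of 7.94 to 8.18 and 8.20 to 8.27. Non-overlap like that of Klf2 and Klf4 was seen in 4.35% of all genes in this table, and like that of Klf9 in 4.32%. Klf15 lay lower in CL KO by a similar amount, -0.24, with an interval that included 0 (SE 0.12, adjusted p = 0.878). Klf6, Klf7 and Klf13 differed in CL by -0.01 to -0.00. Of the endothelium markers, a list with all 11 genes present, 7 were positive between CL KO and CL WT, with a median of 0.13. Of the 11, 0 had an unadjusted p under 0.05. Their summed levels, 115 to 134 CPM in CL KO and 101 to 146 in CL WT, come from the separately scaled tables of PI and CL. They are therefore not a comparison of genotypes. The part of endothelial RNA in the Klf2 and Klf4 differences was not tested.

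Whether PI and CL differed by another amount in KO than in WT was tested as an interaction over 14211 genes, of which 0 were called, 4.55% had an unadjusted p under 0.05, and limma on the deposited values called 1940. Klf2 had an interaction of -0.96 (SE 0.33, 95% interval -1.64 to -0.28, unadjusted p = 0.00792, adjusted p = 0.992). Klf4 had -0.54 (SE 0.30, adjusted p = 0.992). The CL WT libraries, in which Klf2 was lowest, enter this contrast, the comparison of PI with CL in WT and that of genotypes in CL alike, so these 3 values are not separate evidence. For Klf6, Klf7 and Klf13 the interaction lay between -0.07 and 0.00, with 95% intervals inside -0.29 and 0.23.

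The relatives of the 8 did not pass in any comparison. Klf3, Klf5, Klf8, Klf11, Klf12 and Klf16 stood at 2.19 to 4.66 log2 CPM in CL WT, and the 6 listed Sp factors (Sp1, Sp2, Sp3, Sp4, Sp8 and Sp9), which share the zinc-finger type and the GC box, at 1.20 to 6.61. Their differences between PI and CL ran from -0.17 to 0.23 for the Klf genes and from -0.51 to 0.03 for the Sp factors in WT. In KO they ran from -0.14 to 0.27 and from -0.15 to 0.43.

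Genes known to lie upstream or downstream of the members were followed as lists. Of 8 listed endothelial genes that KLF2 and KLF4 raise, 3 were called higher in PI WT and 1 lower, and 2 were called higher in PI KO. Thbd, the anticoagulant receptor thrombomodulin, rose by 1.44 in WT (SE 0.19, adjusted p = 0.000543) and by 0.68 in KO (SE 0.19, adjusted p = 0.0372). Nos3, endothelial nitric oxide synthase, rose by 0.81 in WT (SE 0.20, adjusted p = 0.0224), and its KO value was 0.35 (SE 0.21, adjusted p = 0.327). Hmox1, the stress-induced haem oxygenase, rose by 2.78 and 2.76 (adjusted p = 0.000448 and 0.000452), and S1pr1, the sphingosine phosphate receptor, fell by 0.28 in WT (adjusted p = 0.0456). Endothelium markers had a median of 0.30 in WT and 0.19 in KO in the same comparisons. Between CL KO and CL WT, Thbd had the same sign as Klf2, at 0.89 (SE 0.22, unadjusted p = 0.00122, adjusted p = 0.488), and 7 of the 8 genes were positive, with 0 called. Between PI and CL the signs were also the same in WT, where Klf2 lay at 0.48, but not in KO. There Klf2 lay at -0.49 and Klf4 at -0.16, while Thbd was called higher and 6 of the 8 genes were positive, with a median of 0.27.

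Genes that KLF2 and KLF4 lower in endothelium were called in 1 direction. In each genotype 4 were listed, of which 2 were called higher in PI WT and 1 in PI KO. The 4 were not the same genes. Those listed in both genotypes numbered 3, and Ccl2 was not listed in KO, so these counts are not of 1 gene set. The chemokine gene Ccl2 had deposited values of at most 0.251 CPM in CL WT (adjusted p = 0.000107 between PI and CL). A limit of 3 reads in the shallowest CL WT library was 0.514 CPM, and the PI WT level, 3.8 CPM, was 7.39-fold above it. As deposited values are drawn in, the highest CL WT libraries can exceed 0.251 CPM, so this fold is not a lower bound. The adhesion receptor gene Icam1 rose by 1.83 in WT and 1.44 in KO (adjusted p = 0.0148 and 0.0457), from a CL WT level of -0.84 log2 CPM. Of 11 upstream genes of the MEKK, ERK5, MEF2 and CCM proteins, 1 was called, Mef2c, which fell by 0.29 in PI WT (SE 0.07, adjusted p = 0.0139) and stood at -0.21 in KO (adjusted p = 0.0743). The median of the upstream list was -0.03 in WT and 0.07 in KO.

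Of 6 listed TGF-beta early genes, the class to which Klf10 belongs, 3 were called higher in PI WT (Id3, Skil and Ccn2) and 2 in PI KO (Id3 and Skil), and 0 were called lower. Id3, an inhibitor of basic helix-loop-helix factors, rose by 0.51 in WT and 0.55 in KO (adjusted p = 0.0168 and 0.0116). Among 10 listed target genes of KLF6 and KLF7, 5 were positive in each genotype, with a median of -0.01 in WT and 0.08 in KO. Of these 10, Cdkn1a, the cell cycle inhibitor p21, rose by 0.81 in WT and 1.18 in KO (adjusted p = 0.000893 and 0.000732). The metalloprotease gene Mmp14 rose by 0.66 in WT (adjusted p = 0.0156), and Ntrk2, the receptor of BDNF, fell by 0.31 and 0.25 (adjusted p = 0.000967 and 0.0152). Of 7 listed amino acid catabolism genes linked to KLF15, 3 fell in PI WT as Klf15 did, Prodh by 0.79, Gpt2 by 0.38 and Aldh6a1 by 0.32 (adjusted p = 0.0450, 0.00606 and 0.0414). In PI KO 1 fell, Prodh by 0.64 (adjusted p = 0.0280).

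Glucocorticoid-induced genes, the class of Klf9 and Klf15, did not move one way between PI and CL. Of 12, 2 rose and 1 fell in WT (Mt2, Cdkn1a and Dusp1) and 3 rose in KO (Mt2, Cdkn1a and Errfi1). Cdkn1a is also counted among the target genes of KLF6 and KLF7 above. Mt2, a metallothionein, rose by 1.87 in WT and 2.35 in KO (adjusted p = 7.66e-06 and 5.36e-08), and Dusp1, a phosphatase, fell by 0.46 in WT (adjusted p = 0.0107). Between CL KO and CL WT, where Klf9 and Klf15 lay at -0.18 and -0.24, 10 of the 12 were negative with a median of -0.19 against -0.00 over all genes. There 7 of the 12 had an unadjusted p under 0.05 and 0 were called. Fkbp5, a cochaperone of the glucocorticoid receptor, lay at -0.37 (SE 0.11, adjusted p = 0.648), and the highest of the list was Dusp1 at 0.30.

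For likeness of pattern over the 24 libraries, each member was set against 14103 genes. Since those libraries hold both kinds of sample, any shared difference between PI and CL enters the correlation, which is given as a description. Klf13 was most like Man1a2, Atxn1 and Homer1 (Pearson's r 0.979, 0.977 and 0.975), and Klf6 most like Calu, Trim30a and Ehd4 (0.952, 0.948 and 0.944). Klf9 was most like Zc2hc1a (0.942), Klf15 most like Daam2 (0.888) and Klf10 most like Arl1 (0.886). The highest values were smaller for Klf2 with D630045J12Rik (0.848), Klf7 with Hnrnpab (0.832) and Klf4 with Tbc1d2 (0.804).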

How the data were processed

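Ribosome-depleted total RNA was sequenced, per the labels' protocols (CORALL libraries from 600 ng of RNA), from 6 animals per group. The deposited values are log2 CPM in 4 separately scaled tables of 2 groups, per the file headers, so tests stay within a table. The genome build is mm10, per the submitters' processing notes; the aligner, counter and use of strand are not given in the sources used here. Unmapped columns of values numbered 0.

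In 100% of rows the 2 lowest and the 2 highest deposited values of a group were tied at its quartiles (0.75 of one value plus 0.25 of its neighbour), a step no label records. The 4 inner values were solved. Each library's shift between its 2 tables, matched within 0.0003, told which library held a solved value for 87.4% to 94.3% of end values per group. The test used the mean of the inner values with the Winsorized sum of squares (6 residual degrees of freedom, 12 for the interaction) in limma 3.58.1 (R 4.3.3). The empirical Bayes step adds prior degrees of freedom, and p values and intervals use the total. The test was two-sided, with Benjamini-Hochberg adjustment over the table, and was tested on simulated data. Alternatives were limma on the deposited values, with and without the animal as a block, no prior trend, group centring, log2(CPM + 1), a level of at least 0 log2 CPM in a group, and group medians. Leaving out CL KO animal 6 was added after seeing the data.

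By the labels, each animal gave both a CL and a PI sample. The trimmed-mean test took PI and CL as separate groups, so its SEs, intervals and p values, the interaction included, do not use this pairing. Deviations of same-animal libraries correlated at a median of 0.269 in WT (-0.140 to 0.331) and 0.018 in KO (-0.009 to 0.166). For libraries of different animals the medians were -0.032 in WT and -0.011 in KO. Of 6 PI libraries, 4 in WT and 2 in KO correlated best with the CL library of their own animal. The members and lists were chosen with earlier results of these data known. A few listed genes are not reported here and were left out of the list counts. Named genes were all 8 members, the called genes of each list (at most 3 per comparison with the smallest p), the listed Klf and Sp relatives, and the 3 genes most like a member. Outside that rule, S1pr1, Fkbp5, Cux2, Neurod6 and Slc17a7, and the uncalled values of Thbd, Nos3, Mef2c, Dusp1, Egr1 and Tbr1, were named after they were seen. Positions are from GENCODE M21 and promoters from RefSeq.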

Additional observations from a re-analysis of the deposited data

How the results depend on the processing

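The test chosen for the drawn-in values decides most counts. Limma on the deposited values called 6459, 6666, 2388, 2311 and 1940 genes for PI WT against CL WT, PI KO against CL KO, PI KO against PI WT, CL KO against CL WT and the interaction, and 8, 5, 0, 4 and 2 members. With the replicate number as a block on the same values the counts were 6614, 6759, 1800, 1868 and 2216 genes and 8, 6, 0, 4 and 2 members, so the block itself added 1 member, Klf9 in KO. Same-numbered WT and KO animals share only a number, and 0 of 6 libraries correlated best with their own number in either comparison of genotypes. Without CL KO replicate 6 those fits called 6311, 1779 and 1533 genes and 6, 4 and 2 members in the 3 comparisons that hold it. With no prior trend, 1015 genes and 2 members were called in WT and 739 genes in KO, where the 2 members called were Klf2 and Klf13. With groups centred, 1 member was called in KO. Differences near 0 turned sign in 7 cases. For PI KO against PI WT they were Klf6 at 0.000632 with centring and at 0.0306 by medians, and Klf7 at 0.0219 by medians. For CL KO against CL WT they were Klf10 at -0.0215 by medians and Klf6 at 0.0213 without CL KO replicate 6. For the interaction they were Klf6 at 0.0333 and Klf10 at 0.0532 by medians. The cause was not tested. Log2(CPM + 1) and the level filter changed no call of a member. Depth limits Klf2 and Klf4 most, at 11 to 46 reads per library with bounds counted as values.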

Other observations

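Immediate early genes, transcribed rapidly after a stimulus as Klf2, Klf4, Klf6 and Klf10 also are, were set beside these members. All 14 listed were positive in CL KO against CL WT, with a median of 0.53, 12 had an unadjusted p under 0.05 and 0 were called. Egr1, a zinc-finger factor, lay at 0.51 (SE 0.09, adjusted p = 0.197). Of the 4 members, Klf2 lay at 0.78 and Klf4 at 0.45 in CL, while Klf10 lay at 0.05 and Klf6 at -0.00. In PI KO against PI WT, 13 of the 14 were positive, with a median of 0.38, 5 had an unadjusted p under 0.05 and 0 were called. Klf2 and Klf4 had the other sign there, at -0.19 and -0.09. Between PI and CL in WT, 6 of the 14 were called lower and 1 higher, and the 3 with the smallest p were Egr1 at -1.08, Egr3 at -0.67 and Nr4a1 at -0.85. In KO, 3 were called lower and 0 higher, Egr2 at -2.00, Nr4a1 at -1.14 and Egr3 at -0.82. Klf6 was called higher in both genotypes.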
